A study of Homo sapiens with 3 samples.

Results

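The genes described here are 39 components of cytokine signalling, comprising 26 receptor chains, the 4 JAK kinases, 5 STAT factors and 4 SOCS inhibitors. They were chosen by symbol from a list made with earlier results of these data known. Each symbol matched 1 of the 57773 gene IDs in the count table. Each gene's transcripts were counted in 3 libraries of polyadenylated RNA from NB4, a human acute promyelocytic leukaemia line. The comparison asks what silencing ARID1B, a subunit of the BAF chromatin remodelling complex, does to these transcripts. The control library (n = 1) came from cells with a hairpin that has no target, and the ARID1B group (n = 2) had 1 library for each of hairpins 2 and 3. All cells grew in serum-containing medium. The labels name no added cytokine, retinoid or time point, and they do not say whether the lines were clones, pools or separate infections. The p-values thus rest on the spread of these samples alone, mostly as pooled over all genes, and that spread may be technical.

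Type I and type II cytokine receptors have no kinase of their own. Binding of a ligand brings their chains together, the JAK kinases bound to the chains phosphorylate them, and STAT factors that dock there move to the nucleus. CISH and the SOCS proteins are made in response and switch the receptor off again, so their transcripts are commonly read as a record of STAT activity. In granulocyte development the receptor for granulocyte colony-stimulating factor, CSF3R, is the best known member. Interleukin-17 receptor A (IL17RA) is on the list as a haematopoietic cytokine receptor, although it signals through adaptors and not through JAK kinases.

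With ARID1B silenced, 7 of 22 tested receptor chains rose, as did 1 of 4 SOCS inhibitors. None of the 3 JAK kinases and 5 STAT factors tested passed, and the difference between these classes was not tested. IL10RA, the ligand-binding chain of the interleukin-10 receptor, rose 4.17-fold, and its partner IL10RB 1.64-fold. IL2RB and IL2RG, the chains of the intermediate-affinity interleukin-2 receptor, rose 4.41-fold and 1.58-fold. IL12RB1, IL17RA, the interferon gamma receptor chain IFNGR1 and the inhibitor SOCS1 also rose, while the inhibitor SOCS2 fell to 0.6 of the control level. Of the 39 genes, 34 had enough counts to be tested. Of these, 8 rose and 1 fell (edgeR quasi-likelihood test, Benjamini-Hochberg adjusted p under 0.05 over all 20382 genes tested). Over all genes tested 8.7% were called, 5.49% higher and 3.21% lower, against 26.5% of the 34. Since the list was made with earlier results of these data known, these shares are a description and no test of an excess. DESeq2 kept 5 of the rises and the SOCS2 fall, and edgeR with all low-count genes kept in called none of the whole table (0, with 3218 at an unadjusted p under 0.05).

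The filter needs about 10 counts in 1 library, so a scarce gene can enter through the group in which it is high. IL12RB1 and IL21R entered only through the hairpin libraries and STAT4 only through the control. Among the 28 genes with a mean level of 1 or more CPM (counts scaled to library size), 6 rose and 1 fell, where 10.8% of all genes at that level were called. Their median log2 fold change was 0.25, against -0.0053 over all genes at that level. The 5 untested genes were LIFR, IL2RA, IL7R, CRLF2 and JAK3.

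**Figure D1:**
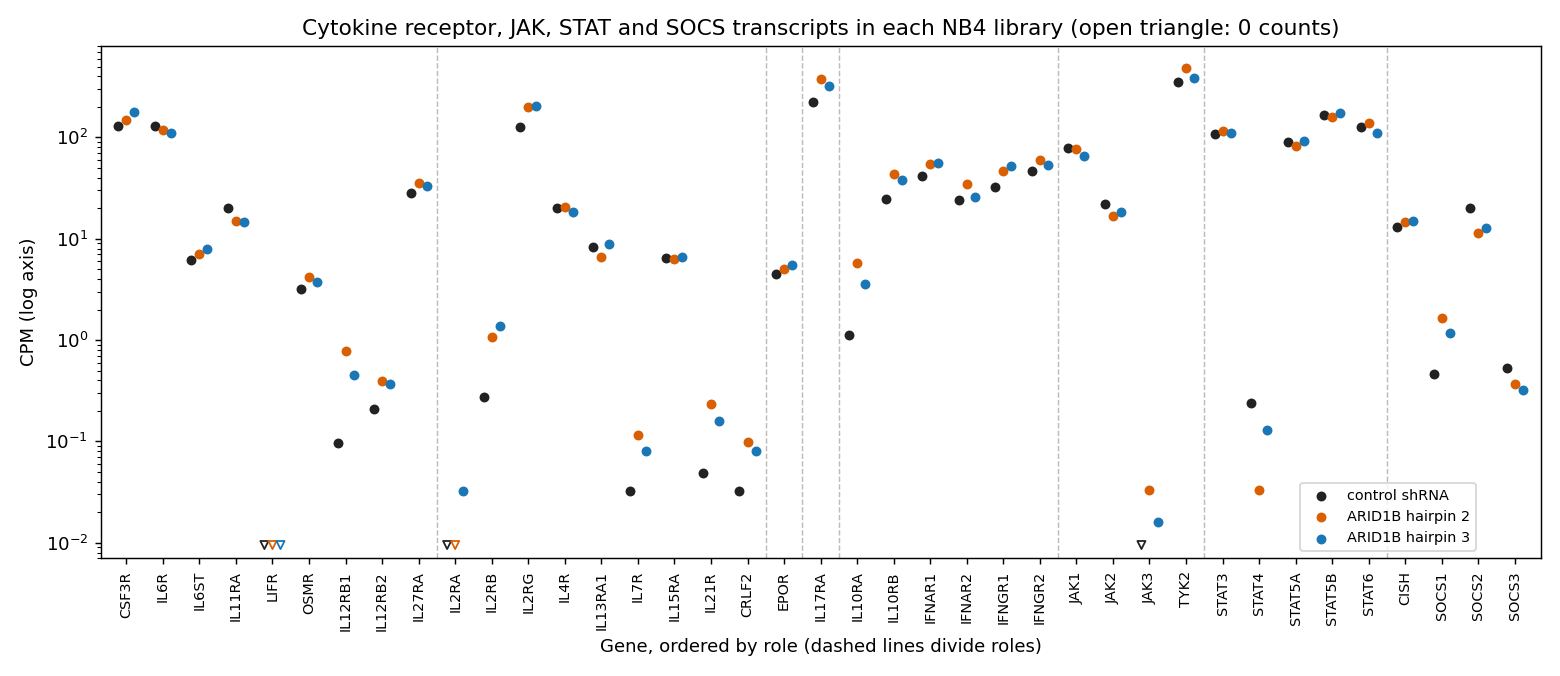
Level of each of the 39 genes in the 3 libraries, in CPM on a log axis, with genes ordered by role and 1 point per library (open triangles mark 0 counts). The 2 hairpin libraries lie above the control for IL12RB1, IL2RB, IL2RG, IL17RA, IL10RA, IL10RB, IFNGR1 and SOCS1 and below it for SOCS2.

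The libraries held 59997475 to 62954803 counts, so the upper limit for a gene with a 0 (3 counts) was 0.0477 to 0.05 CPM. Such limits and the intervals below cover counting error only. ARID1B itself measured 84.8 CPM (control), 36.7 CPM (hairpin 2) and 35.8 CPM (hairpin 3), and it fell by 1.23 on the log2 scale (SE 0.125, edgeR adjusted p = 1.4e-05). NB4 markers were present in each library, MPO with 682719 counts or more, except that neutrophil elastase (ELANE) had 10, 4 and 1 counts. PRTN3 rose and CTSG fell among those 6 markers. Markers of other cells moved as well. The summed level of 13 eosinophil, basophil and mast cell markers went from 93.8 CPM to 2151 and 1134 CPM. Of 12 tested genes 9 were higher (EPX, PRG2, PRG3, CLC, HDC, CPA3, TPSAB1, TPSB2 and SIGLEC8), where 5.49% of all genes tested were, and FCER1A was at 0. CLC and PRG3, with 3 and 9 counts in the control, entered the test only through the hairpin libraries. So did IL5RA and CCR3, with 5 and 9 counts in the control, which did not pass. The sum of 7 monocyte markers went from 32.0 to 74.3 and 51.8 CPM, with FCN1 and CD68 among the higher genes and CSF1R at 468, 396 and 290 counts (log2 -0.42 ± 0.219, not past the threshold). Of 8 erythroid and megakaryocyte markers GATA1 and ITGA2B rose, and HBA1, PF4 and GP9 were among those at 0. Of 6 epithelial and stromal markers none rose and COL6A1 fell. CD68 shares 81.7% of its exon length with another gene of the count table and PRG2 43.0%, so their counts are uncertain. In the robust edgeR fit EPX, PRG2, CLC, HDC, FCN1, GATA1 and ITGA2B lost their calls (adjusted p from 0.0698 to 0.557), and in DESeq2 FCN1 and COL6A1 did (0.31 and 0.098). Over all alternatives the adjusted p of these 8 genes reached at most 0.557. The part of these shifts in the receptor changes was not tested, and in bulk RNA more cells of a type cannot be told apart from more RNA per cell.

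Promoter letters are shown first for 4 genes, since the STAT factors that these receptors activate bind DNA at TTCNNNGAA. The sequences are the 250 bases before the RefSeq start (GRCh38.p14), 5′ to 3′ on the gene's strand. Capitals mark TTCNNNGAA, the GATA factor motif AGATAA or the PU.1 core GAGGAA, the last 2 searched on both strands. No matches of different motifs overlapped in these genes' windows. IL10RA, IL10RB and IL2RG are shown as receptor genes that rose. CISH, chosen after its values were seen, is shown as a well-known STAT5 target that did not pass. They lie at chr11:117989695-117989944 (plus strand), chr21:33266117-33266366 (plus), chrX:71111578-71111827 (minus) and chr3:50611775-50612024 (minus).
IL10RA: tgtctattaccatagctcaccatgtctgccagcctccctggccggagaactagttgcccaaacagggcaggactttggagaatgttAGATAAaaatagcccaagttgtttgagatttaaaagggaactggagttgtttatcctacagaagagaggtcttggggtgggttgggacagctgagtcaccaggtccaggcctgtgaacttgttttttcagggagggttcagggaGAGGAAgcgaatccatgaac
IL10RB: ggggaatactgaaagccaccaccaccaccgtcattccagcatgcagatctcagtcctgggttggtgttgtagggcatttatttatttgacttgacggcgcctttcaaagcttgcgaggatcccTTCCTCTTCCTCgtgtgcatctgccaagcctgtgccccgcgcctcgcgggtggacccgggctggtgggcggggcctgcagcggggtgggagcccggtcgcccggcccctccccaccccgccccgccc
IL2RG: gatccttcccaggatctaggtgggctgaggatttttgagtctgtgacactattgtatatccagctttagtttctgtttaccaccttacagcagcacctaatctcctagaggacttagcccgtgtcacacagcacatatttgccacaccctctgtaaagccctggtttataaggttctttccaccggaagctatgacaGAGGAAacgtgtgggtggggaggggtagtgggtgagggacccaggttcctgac
CISH: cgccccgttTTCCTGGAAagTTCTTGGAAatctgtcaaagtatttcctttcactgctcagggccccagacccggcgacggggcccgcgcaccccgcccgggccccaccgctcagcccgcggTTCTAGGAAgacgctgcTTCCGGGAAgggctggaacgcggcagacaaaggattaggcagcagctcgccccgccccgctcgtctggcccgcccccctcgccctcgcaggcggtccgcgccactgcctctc

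RefSeq windows of 300 bases, 250 before to 50 after a start, were found for 34 of the 39 genes, 53 windows in all. IL2RB, CRLF2, IL17RA, IFNAR2 and SOCS2 had no entry. TTCNNNGAA stood in 5 of the 53 windows (9.43%), of the genes CISH, IL10RB, IL15RA and LIFR, and in 7.66% of all 35116 windows. CISH held 4 of these motifs, and 7 windows of the whole table, that of CISH included, held 4 or more. The GATA letters stood in 9.43% of the windows against 10.3% of all, and the PU.1 letters in 35.8% against 27.9%. The match in the IL10RB window lies after the start, outside the stretch shown. The searches for the GATA and PU.1 letters were added after the values were seen. These shares are a description of letters and say nothing of binding in NB4 cells.

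The class II receptors, which bind interleukin-10 and the interferons, all had a positive log2 fold change, and 3 of 6 passed. Over all genes tested 48.5% had a positive log2 fold change and 8.7% were called. The promoters of IL10RB, IFNAR1 and IFNGR2 lie between 33266117 and 33403412 on chromosome 21, so the 6 genes may not be independent. Their median log2 fold change was 0.51, against -0.01 over all genes tested. IL10RA (ENSG00000110324) had 69 counts in the control and 343 and 224 under hairpins 2 and 3, or 1.11, 5.70 and 3.59 CPM. Both hairpin libraries lay well above the control, hairpin 2 the higher. The mean of the hairpin libraries was 4.65 ± 1.49 CPM (SD, n = 2), and the log2 fold change was 2.06 ± 0.33 (SE; edgeR adjusted p = 0.000712). IL10RB (ENSG00000243646), the chain shared with other receptors of the family, had 24.8 CPM in the control and 43.2 and 37.8 CPM in the hairpin libraries. It rose by 0.71 ± 0.145 on the log2 scale (edgeR adjusted p = 0.00493). A readthrough gene, IFNAR2-IL10RB, covers 38.1% of the exon length of IL10RB, so its count is uncertain. The readthrough row had 1074, 1680 and 1517 counts and rose too (log2 0.60 ± 0.153, edgeR adjusted p = 0.0223).

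Levels can be compared between genes only per transcript length, here as TPM, which divides counts by the summed exon length before scaling. On that scale IL10RB stood 39.7 times above IL10RA in the control, and 13.5 and 18.7 times above it under hairpins 2 and 3. IL10RA thus stayed the scarcer of the pair in each library, by a smaller margin with ARID1B silenced. Their ligand gene IL10 had 2 counts in the control and 24 and 12 in the hairpin libraries. The ratio was 12.4 under hairpin 2 (exact 95% counting interval 3.08 to 108) and 5.98 under hairpin 3 (1.33 to 55.0). IL10 did not pass in edgeR (adjusted p = 0.0593).

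Among the interferon receptors IFNGR1, the ligand-binding chain for interferon gamma, went from 32.5 CPM to 46.3 and 51.9 CPM. Both hairpin libraries were higher and close together. It rose by 0.60 ± 0.14 on the log2 scale (edgeR adjusted p = 0.0126). Its partner IFNGR2 had 46.2 CPM in the control and 60.5 and 53.6 CPM in the hairpin libraries (log2 0.30 ± 0.136, not past the threshold). Per length, IFNGR2 stood 1.57 times above IFNGR1 in the control and 1.45 and 1.14 times above it in the hairpin libraries. The chains of the type I interferon receptor had no call. IFNAR1 had 41.7, 55.3 and 55.9 CPM (log2 0.42 ± 0.132, edgeR adjusted p = 0.0639). With the legacy quasi-likelihood fit IFNAR1 passed (adjusted p = 0.0456; alternatives ranged from 0.0456 to 1). IFNAR2 had 1507, 2068 and 1620 counts, so that hairpin 3 lay near the control. Other annotated genes cover 83.2% of the exon length of IFNAR2 in all, and the same readthrough gene covers 44.2%. IFNGR2 shares 12.8% with TMEM50B on the other strand.

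The common gamma chain family binds interleukins 2, 4, 7, 9, 15 and 21 and is best known from lymphocytes. Of its 9 chains and relatives on the list 6 were tested, and 2 rose, where 5.49% of all genes tested did. For the 4 with a mean level of 1 or more CPM the median log2 fold change was -0.006. Over all genes at that level it was -0.0053. IL2RG (ENSG00000147168), the common gamma chain itself, had 127 CPM without silencing and 199 and 202 CPM with hairpins 2 and 3. The hairpin libraries differed little from each other and lay above the control. IL2RG rose by 0.66 ± 0.134 on the log2 scale (edgeR adjusted p = 0.00484). In the control it was the most abundant of the 26 receptor chains per length, at 130 TPM. A gene that GENCODE 29 annotates over 50.8% of its exon length has no row in the count table.

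IL2RB (ENSG00000100385), which pairs with IL2RG for interleukins 2 and 15, had 17 counts in the control and 64 and 85 in the hairpin libraries. This was 0.27 CPM against 1.21 ± 0.212 CPM (SD, n = 2), a log2 fold change of 2.14 ± 0.465 (edgeR adjusted p = 0.00741). In DESeq2 the call was lost (adjusted p = 0.0671; alternatives ranged from 0.00168 to 0.47). Per length IL2RG stood 792 times above IL2RB in the control and 318 and 253 times above it in the hairpin libraries. IL2RB therefore remained a scarce transcript beside its partner. IL2RA, the chain that makes the high-affinity receptor, had 0, 0 and 2 counts.

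The other cytokine-specific chains of the family on the list gave low counts or no call. IL4R, which serves both interleukin-4 and interleukin-13, had 19.9, 20.7 and 18.3 CPM (log2 -0.03 ± 0.152). IL13RA1, its partner outside the gamma chain, had 8.37, 6.58 and 8.81 CPM (log2 -0.12 ± 0.203). IL15RA, which presents interleukin-15, had 6.44, 6.39 and 6.67 CPM (log2 0.02 ± 0.194). For each of these the control lay between the hairpin libraries. IL21R had 3, 14 and 10 counts, or 4.82 times the control with hairpin 2 (exact 95% interval 1.34 to 26.2) and 3.32 times with hairpin 3 (0.855 to 18.8), and it did not pass. The interleukin-7 receptor IL7R had 2, 7 and 5 counts and CRLF2, the chain for thymic stromal lymphopoietin, 2, 6 and 5. Their ratios under hairpin 2 were 3.61 (0.688 to 35.7) and 3.10 (0.554 to 31.4). IL21R shares 23.3% of its exon length with IL21R-AS1 on the other strand. IL9R, a further cytokine-specific chain of the family, is not on the list and did pass. It rose from 18 counts in the control to 193 and 135 under hairpins 2 and 3 (log2 3.20 ± 0.44, edgeR adjusted p = 0.000172).

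Because these chains are known from lymphocytes, 11 markers of T, NK and B cells are given beside them. Their summed level was 142 CPM in the control and 206 and 171 CPM in the hairpin libraries. CD3D rose from 292 counts to 595 and 704, and NKG7 from 1531 to 2734 and 1935. NKG7 was lost in DESeq2 (adjusted p = 0.0853; alternatives ranged from 0.0173 to 1). The other chains of the T cell receptor complex on the list, CD3E and CD3G, had at most 3 counts, and the B cell marker MS4A1 had 0. The part of the lymphoid markers in the rise of IL2RB and IL2RG was not tested.

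The family around gp130 (IL6ST) and CSF3R had 1 call among 8 tested chains (12.5%), where 8.7% of all genes tested were called. The gene called, IL12RB1, passed the filter only through the hairpin libraries. IL12RB1 (ENSG00000096996), a chain shared by the interleukin-12 and interleukin-23 receptors, had 6 counts in the control and 47 and 28 in the hairpin libraries. The ratio was 8.09 under hairpin 2 (exact 95% counting interval 3.45 to 23.2) and 4.65 under hairpin 3 (1.89 to 13.7). Its log2 fold change was 2.64 ± 0.682 (edgeR adjusted p = 0.0232), and the call was lost in DESeq2 (adjusted p = 0.176; alternatives ranged from 0.00774 to 0.47). Its interleukin-12 partner IL12RB2 had 13, 24 and 23 counts (log2 0.87 ± 0.559) and did not pass. Both stayed below 1 CPM in each library.

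CSF3R, through which granulocyte colony-stimulating factor drives neutrophil formation, had 130 CPM in the control and 149 and 178 CPM in the hairpin libraries (log2 0.33 ± 0.142, edgeR adjusted p = 0.193). IL6R, the interleukin-6 binding chain, had 129, 117 and 112 CPM (log2 -0.17 ± 0.128). Neither passed, and the hairpin libraries lay on 1 side of the control for both. That is common, since the control lay between the hairpins for only 22.2% of all genes tested and for 6 of these 34. IL6ST, the signalling chain used by interleukin-6, oncostatin M and interleukin-27, had 6.15, 7.12 and 7.88 CPM (log2 0.29 ± 0.194). Per length IL6R stood 30.1 times above IL6ST in the control and 23.7 and 20.4 times above it in the hairpin libraries. IL27RA, which pairs with IL6ST, had 28.2, 35.2 and 33.4 CPM (log2 0.29 ± 0.138). The oncostatin M receptor OSMR had 3.17, 4.22 and 3.77 CPM (log2 0.33 ± 0.236). No read of its relative LIFR was counted in the 3 libraries (0 counts, upper limit 0.05 CPM). IL11RA, the interleukin-11 binding chain, had 20.1, 14.9 and 14.5 CPM (log2 -0.45 ± 0.15, edgeR adjusted p = 0.076). It was the receptor chain with the lowest log2 fold change of the 22 tested. It passed as lower with upper quartile factors (edgeR adjusted p = 0.0432; alternatives ranged from 0.0432 to 1).

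Outside these families, IL17RA (ENSG00000177663) had 224 CPM without silencing and 378 and 325 CPM with hairpins 2 and 3. Both hairpin libraries were above the control. It rose by 0.65 ± 0.149 on the log2 scale (edgeR adjusted p = 0.0109) and was second to IL2RG among the receptor chains in the control, at 69.8 TPM. The erythropoietin receptor EPOR had 4.54, 5.05 and 5.52 CPM and did not pass.

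**Figure D2:**
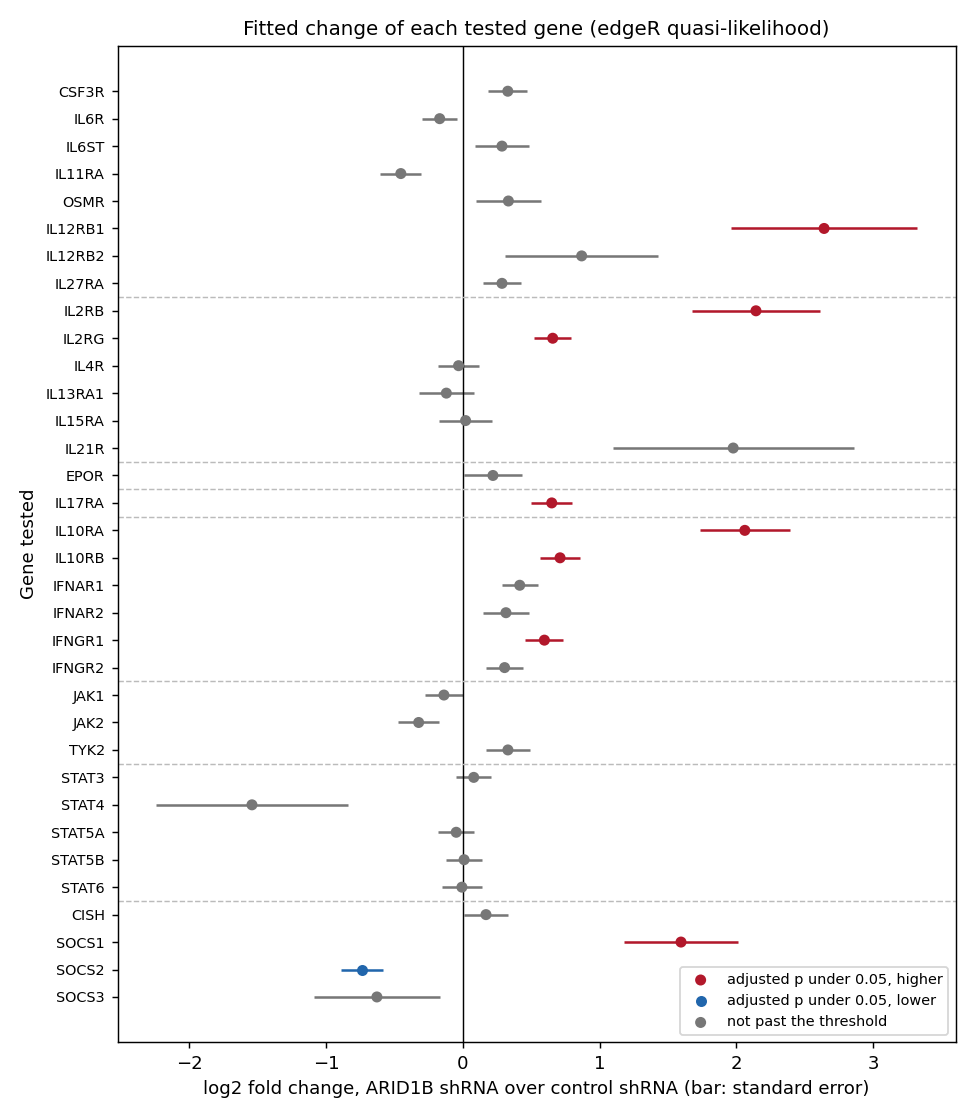
Log2 fold change of ARID1B shRNA over control shRNA for the 34 tested genes, grouped by role, with bars for the standard error and colours for the edgeR call at an adjusted p of 0.05. Of the 22 receptor chains 7 rose, and of the 3 JAK kinases and 5 STAT factors none passed, where 8.7% of all genes tested were called.

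None of the JAK kinases passed the test. TYK2, used by interferon, interleukin-10 and interleukin-12 receptors, had 349 CPM without silencing and 486 and 390 CPM with hairpins 2 and 3 (log2 0.33 ± 0.159, edgeR adjusted p = 0.258). The hairpin libraries differed more from each other than hairpin 3 did from the control. JAK1, the partner kinase in most of these receptors, had 79.1, 77.8 and 66.0 CPM (log2 -0.14 ± 0.136). JAK2, which serves CSF3R, EPOR and the interferon gamma receptor, had 22.1, 16.9 and 18.4 CPM (log2 -0.32 ± 0.148, edgeR adjusted p = 0.223). JAK3, the kinase of the common gamma chain, had 0, 2 and 1 counts, within the 3 counts that a 0 allows. Per length TYK2 made up 76.2% of the summed JAK level in the control and 82.7% and 81.1% in the hairpin libraries. It stood 4.11 times above JAK1 in the control and 5.83 and 5.51 times above it under hairpins 2 and 3.

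None of the 5 STAT factors passed the test, and STAT4 was far scarcer than the other 4. STAT5B, an effector of many haematopoietic cytokines, had 165, 158 and 174 CPM (log2 0.0086 ± 0.133). STAT5A had 90.2, 82.3 and 92.2 CPM (log2 -0.05 ± 0.132). STAT3, used by CSF3R, IL6R and IL10RA, had 108, 116 and 112 CPM (log2 0.08 ± 0.128), and STAT6, the factor of interleukin-4, had 126, 139 and 111 CPM (log2 -0.0074 ± 0.146). For STAT5A, STAT5B and STAT6 the control lay between the hairpin libraries, and the sign of STAT5B and STAT6 depends on the scaling. The summed TPM of the 5 STAT factors was 199 in the control and 199 and 195 in the hairpin libraries. STAT4, the factor of interleukin-12, had 15, 2 and 8 counts. The ratio was 0.138 under hairpin 2 (exact 95% counting interval 0.0153 to 0.592) and 0.531 under hairpin 3 (0.195 to 1.33), and it did not pass. STAT4 was the single gene of the 34 genes whose hairpin libraries differed by more than the 95th percentile of all genes, a log2 gap of 0.87.

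The inhibitors moved in opposite directions. SOCS1 (ENSG00000185338), which blocks JAK kinases directly and is induced by interferons, had 29 counts in the control and 99 and 74 in the hairpin libraries. This was 0.47 CPM against 1.42 ± 0.325 CPM (SD, n = 2), with both hairpin libraries higher. It rose by 1.59 ± 0.414 on the log2 scale (edgeR adjusted p = 0.0237). It was lost in DESeq2 and under the stricter CPM filter (adjusted p = 0.175 and 0.0625; alternatives ranged from 0.00864 to 0.47). SOCS2 (ENSG00000120833), an inhibitor of growth hormone and STAT5 signalling, had 20.1 CPM in the control and 11.4 and 12.7 CPM in the hairpin libraries. It fell by 0.74 on the log2 scale (SE 0.155, edgeR adjusted p = 0.006), with both hairpin libraries well below the control.

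The other inhibitors had no call. CISH, whose promoter letters are shown above, had 13.1 CPM in the control and 14.6 and 14.9 CPM in the hairpin libraries (log2 0.17 ± 0.159, edgeR adjusted p = 0.616). SOCS3, induced through STAT3, had 33, 22 and 20 counts (log2 -0.63 ± 0.463, edgeR adjusted p = 0.501). Per length SOCS2 made up 49.5% of the summed level of the 4 inhibitors in the control and 30.1% and 33.6% in the hairpin libraries. The share of CISH was 42.9%, 51.1% and 52.4%, and that of SOCS1 4.35%, 16.4% and 11.9%. CISH was the most abundant of the 4 in the hairpin libraries and SOCS2 in the control, while their sum was 16.8, 15.7 and 15.3 TPM.

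**Figure D3:**
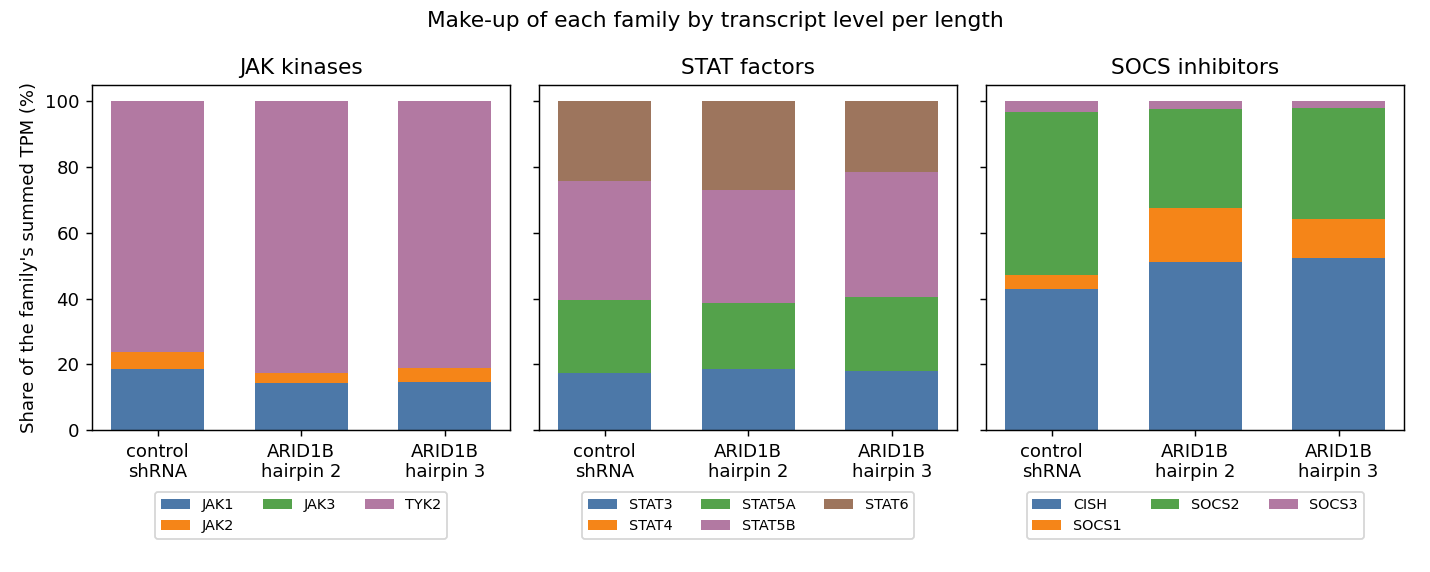
Share of each gene in the summed TPM of its family, in percent, for the JAK kinases, STAT factors and SOCS inhibitors in the 3 libraries. TYK2 holds over 75% of the JAK level in each library, and the share of SOCS2 is 49.5% in the control and 30.1% and 33.6% in the hairpin libraries.

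Each hairpin was also set against the control alone, without a test, as both comparisons share that library. Both hairpins lay at least 1.5-fold above the control for 8 of the 34 genes, where 6.43% of all genes did so. These were IL12RB1, IL12RB2, IL2RB, IL2RG, IL21R, IL10RA, IL10RB and SOCS1. For STAT4 and SOCS2 both lay at least 1.5-fold below, where 5.77% of all genes did so. The side of IL12RB1 and IL21R was partly set by the filter, which they passed only through the hairpin libraries. The same holds for STAT4, which passed it only through the control. IL17RA and IFNGR1 rose in the test but missed this fold in 1 library each, IL17RA under hairpin 3 (1.45-fold) and IFNGR1 under hairpin 2 (1.42-fold). The median gap between the hairpins was 0.17 on the log2 scale for the 34 genes, the same as the 0.17 over all genes.

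Other genes of the pathway were read from lists that leave out the 39. Most ligand transcripts were scarce: of 25 ligand genes 16 had at most 6 counts in any library, 5 of them at 0 throughout, and 5 others were tested. OSM, the ligand of OSMR, rose from 3.53 CPM to 5.74 and 6.06 CPM (log2 0.74 ± 0.218, edgeR adjusted p = 0.0446). This call was lost in DESeq2 (adjusted p = 0.202; alternatives ranged from 0.0324 to 1). Of 9 tested chains of other cytokine receptors 3 rose, IL9R (log2 3.20 ± 0.44), CSF2RB (2.93 ± 0.277) and CSF2RA (0.85 ± 0.151). CSF2RB was lost with the robust fit (edgeR adjusted p = 0.273; alternatives ranged from 1.0e-09 to 0.47). STAT2 and IRF9, interferon-activated factors, had log2 fold changes of -0.19 ± 0.137 and 0.61 ± 0.214, and neither passed. IRF9 shares 48.4% of its exon length with another gene of the count table.

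Of 16 other inhibitors and phosphatases 3 rose and 1 fell, with a list median of -0.08. PTPN6 (SHP-1), a phosphatase that removes activating marks from receptors and JAK kinases, rose from 123 CPM to 223 and 192 CPM (log2 0.76 ± 0.143, edgeR adjusted p = 0.00278). The phosphatase PTPRC (CD45) rose by 0.64 ± 0.17 and SH2B3 (LNK), an adaptor that restrains JAK2, by 0.64 ± 0.14. The ubiquitin ligase CBLB fell (log2 -0.69 ± 0.203). PTPRC was lost with the robust edgeR fit (adjusted p = 0.128; alternatives ranged from 0.0088 to 1). CBLB was lost in DESeq2 (adjusted p = 0.29; alternatives ranged from 0.0263 to 1). Among 10 adaptors IRS2, which carries signals of interleukin-4 and insulin, fell from 238 CPM to 141 and 138 CPM (log2 -0.77 ± 0.127, edgeR adjusted p = 0.000891), and no other passed.

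Of 18 tested textbook STAT targets outside the 39 genes, 5 passed as higher and none as lower. The list median was 0.40, against -0.01 over all genes. Over all genes tested 5.49% passed as higher. The summed level of the 20 listed genes went down, from 2191 CPM to 1756 and 1872 CPM. MYC, named beyond the rule after its values were seen, made up most of this sum in each library, with 1506, 939 and 1128 CPM. The drop of MYC was larger than that of the sum, so the rest of the list together did not go down. MYC did not pass (log2 -0.54 ± 0.175, edgeR adjusted p = 0.0681). ID2, an inhibitor of basic helix-loop-helix factors, rose from 2.03 CPM to 8.51 and 5.95 CPM (log2 1.83 ± 0.267, edgeR adjusted p = 0.000304). The kinase PIM1, a target of STAT3 and STAT5, rose from 6.07 CPM to 13.7 and 11.6 CPM (log2 1.06 ± 0.188, edgeR adjusted p = 0.00172). BCL3, PIM2 and BCL2L1 rose by 1.27 ± 0.292, 0.57 ± 0.135 and 0.55 ± 0.144 on the log2 scale. BCL2L1, named beyond the rule after its values were seen, was lost in DESeq2 (adjusted p = 0.0591; alternatives ranged from 0.0146 to 1). BCL3 was lost under the stricter CPM filter (edgeR adjusted p = 0.0515; alternatives ranged from 0.00306 to 0.47).

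**Figure D4:**
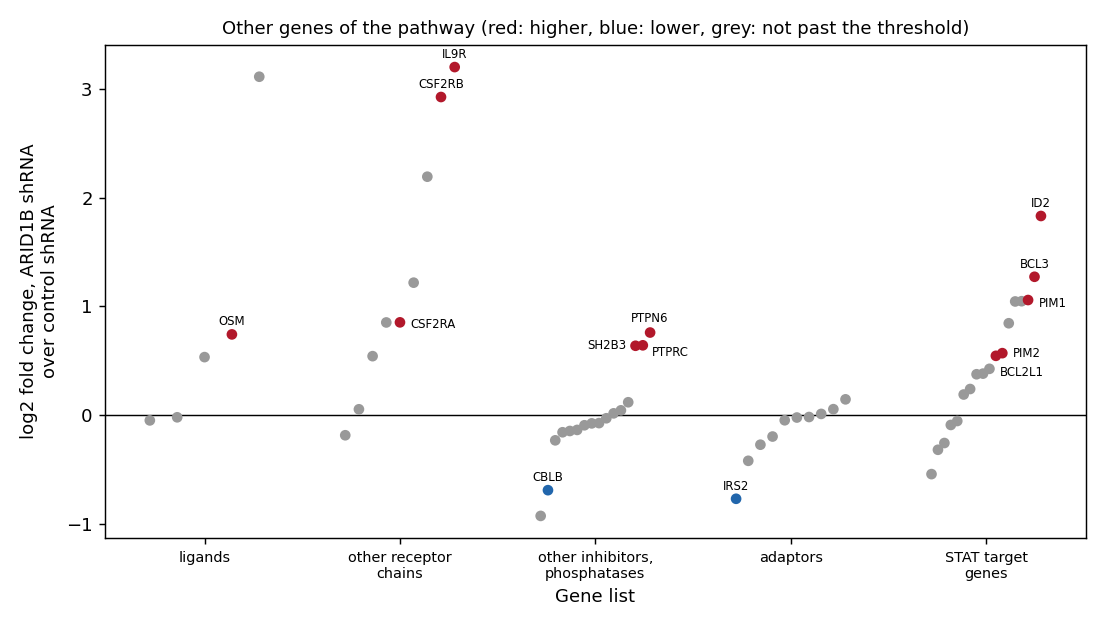
Log2 fold change of ARID1B shRNA over control shRNA for the tested genes of 5 lists outside the 39, 1 point per gene, with called genes named. Rises reach 3.20 among other receptor chains and 1.83 among STAT targets, and the adaptors hold 1 fall, IRS2.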

How the data were processed

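The authors deposited a single table of raw counts (57773 Ensembl IDs, 3 libraries). STAR, Cufflinks and featureCounts and the build hg19 are named per the submitters' processing notes, without roles or versions; annotation and strand use: not given in the sources used here, so the split of reads between overlapping genes is uncertain. Symbols, exon lengths and overlaps came from a gene name table and GENCODE 29, another build, used without coordinates. Tests used edgeR 4.0.16 under R 4.3.3: filterByExpr (minimum count 10), TMM factors, estimateDisp, glmQLFit (legacy = FALSE) and glmQLFTest, two-sided, at an adjusted p of 0.05. CPM uses TMM-scaled library sizes, TPM the summed exon length, and ratios of 2 libraries exact 95% intervals. With 1 residual degree of freedom, a gene's own spread is the difference between hairpins and the lone control is assumed to vary like them. The fit weighed it with a spread pooled over all genes (median prior degrees of freedom 14.8). The SEs and p-values thus rest mostly on the pooled part. Log2 ratios of single libraries used a prior count of 2. Alternatives were other scaling factors, filters, robust and legacy fits, a test against 1.5-fold and DESeq2 1.42.0. The procedure was tested on simulated data. All 39 genes are named by rule, and from each other list up to 4, called genes first. The members and lists were chosen with earlier results of these data known. Some genes of the lists are not reported here.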

Additional observations from a re-analysis of the deposited data

How the results depend on the processing

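The count of called genes over the whole table was 1774, and it was 0 without a filter (3218 at an unadjusted p under 0.05), 960 with a mean CPM of at least 1, 1052 in DESeq2 and 457 against a fold change of 1.5. The share of calls that were higher was 63.1%. Where any gene was called, it ranged from 53.8% with upper quartile factors to 73.7% in DESeq2. Of the 39 genes, 8 were called higher, against 0, 5, 5 and 2 under the same 4 settings; with no filter and against 1.5-fold 0 were lower, and with upper quartile factors 2, SOCS2 and IL11RA. The settings that kept 5 rises kept IL2RG, IL17RA, IL10RA, IL10RB and IFNGR1, and IL10RA and IL2RB passed against 1.5-fold. The count of genes with both hairpins at least 1.5-fold on 1 side was 10, and 5 at 2-fold. Genes near no change turned sign: IL15RA (-0.0287) and STAT5B (-0.0395) with upper quartile factors, STAT5B (-0.0078) with library size alone, and STAT6 (0.0081) with DESeq2 size factors and in DESeq2 (0.0081). No called gene turned sign under any setting, either hairpin alone included. Without 1 hairpin there is no residual degree of freedom, so counts of calls could not be had. No paired analysis was possible because the control has 1 library and shares no replicate number with the hairpins. At this depth genes with under about 10 counts could not be compared, among them IL2RA, JAK3, LIFR, IL7R and CRLF2.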
